A study of Mus musculus with 15 samples.

Results

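The accessible chromatin around 5 genes that set macrophage identity, Spi1, Cebpa, Cebpb, Irf8 and Csf1r, was described in macrophages grown from the bone marrow of C57BL/6J mice. A window of the mouse genome (build mm9) was laid around each gene, and all DNase hotspots of the 15 deposited lists that overlapped a window were taken. Hotspots of different lists that shared at least 1 bp were joined into 1 element. This gave 90 elements of the 324309 such regions in the genome, with 14 in the Spi1 window, 17 at Cebpa, 9 at Cebpb, 32 at Irf8 and 18 at Csf1r. Elements are numbered from left to right within a window, so Csf1r-14 is the fourteenth element of the Csf1r window.

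DNase-seq, which reads where the enzyme DNase I cuts open chromatin, was done on cells given 10 ng/ml lipopolysaccharide (LPS, a bacterial cell wall component that activates macrophages) for 0, 3 or 8 h. At every time point there were 2 libraries of wild-type (WT) cells, 1 of a littermate control and 2 labelled Ikzf KO, which lack an Ikaros family gene. The labels do not say which gene of the family or which allele was deleted, and the deletion was not checked here. WT replicate 1, the littermate and both KO replicates were labelled as digested with 80 U of DNase, and WT replicate 2 with 100 U. These amounts come from the titles, whereas the protocol text names 80 U/ml for every library, and which holds is not known. Controls are the WT and littermate libraries together, 3 per time. The labels do not state that replicates are separate mice or cultures, so the p-values reflect the spread between these libraries alone, which may be technical.

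Spi1 encodes PU.1, the factor that opens much of the macrophage enhancer repertoire and acts in concert with the C/EBP factors encoded by Cebpa and Cebpb. Cebpa is known for directing progenitors to the myeloid fate, whereas Cebpb is induced in macrophages by inflammatory signals. Irf8 encodes an interferon regulatory factor that pairs with PU.1, and Csf1r encodes the receptor for the growth factor that keeps macrophages alive. Ikaros proteins are zinc finger regulators known mainly from lymphocytes.

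The RefSeq promoter table (build GRCm38.p6) held 3 of the 5 genes, Irf8, Cebpa and Cebpb. The 250 bases before their start sites are shown because they are the core promoters of transcription factors whose windows are described below, and capitals mark TATAAA, the TATA box.
Irf8, chr8:120736108-120736357, plus strand: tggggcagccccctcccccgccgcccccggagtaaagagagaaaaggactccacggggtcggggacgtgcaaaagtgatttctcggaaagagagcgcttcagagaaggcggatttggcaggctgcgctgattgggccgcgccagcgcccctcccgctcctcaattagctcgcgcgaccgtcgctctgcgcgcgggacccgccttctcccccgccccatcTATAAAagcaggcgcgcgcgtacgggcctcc
Cebpa, chr7:35119043-35119292, plus strand: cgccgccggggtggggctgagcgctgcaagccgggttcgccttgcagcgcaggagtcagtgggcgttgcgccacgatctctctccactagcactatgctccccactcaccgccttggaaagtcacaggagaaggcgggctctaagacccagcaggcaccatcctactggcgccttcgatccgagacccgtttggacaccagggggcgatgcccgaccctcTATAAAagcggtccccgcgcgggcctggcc
Cebpb, chr2:167688665-167688914, plus strand: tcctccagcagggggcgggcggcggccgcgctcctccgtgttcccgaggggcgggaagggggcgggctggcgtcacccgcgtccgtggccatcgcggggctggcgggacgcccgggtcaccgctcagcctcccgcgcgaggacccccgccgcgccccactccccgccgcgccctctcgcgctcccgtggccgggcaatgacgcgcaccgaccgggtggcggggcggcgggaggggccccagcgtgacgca
TATAAA starts 31 bases before the Irf8 start and 30 before the Cebpa start, and these letters are not in the Cebpb stretch. On either strand they occur in 12.4% of 32851 promoters of that length. GC content was 67.2% for Irf8, 66.4% for Cebpa and 81.6% for Cebpb, against a median of 52.4% over all promoters. None of the 3 stretches held on either strand AGGAAGT (PU.1, in 7.69% of promoters), TTGCNNAA (C/EBP, 9.56%), TGGGAA (Ikaros, 21.6%), GAAA, NN and GAAA in a row (interferon response, 2.98%) or GGGA, N and TTTCC in a row (NF-kB, 0.356%). The promoter table and the hotspot lists are in different builds, so no element is called a promoter, intron or distal site here.

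The lists differ in length and strength in ways that run along the groups. They held 15659 to 51834 hotspots in WT, 52400 to 114427 in the littermate and 111553 to 132279 in KO. The Z-score (the authors' enrichment score) of hotspot 15659 from the top, the length of the shortest list, was 8.48 to 11.4 in the 6 control libraries at 0 and 3 h, 25.8 to 27.3 in the 3 controls at 8 h, and 25.1 to 40.0 in KO. Genotype, and in controls hours of LPS, therefore cannot be told apart from library strength in a comparison of raw scores or of presence. A pair of views limits this without removing it: lists shortened to their 15659 strongest hotspots (equal-length lists), and ranks by Z-score within a fixed set of regions that every library compared holds, where rank 1 is the strongest. Differences in rank were tested with limma on normal scores (ranks turned into standard normal values, positive meaning stronger), with Benjamini-Hochberg adjustment over all regions of the set and calls at adjusted p under 0.05.

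Of the 90 elements 8 were in all 15 lists, against 3.21% of all regions. These were Spi1-3, Spi1-5 and Spi1-6, Cebpa-3, Cebpb-5, Irf8-4 and Irf8-15, and Csf1r-8, so each of the 5 loci had at least 1 element open in every library. In equal-length lists 28 of the 90 elements remained, and 6 of them were in all 15 (all but Cebpb-5 and Irf8-15 of the 8), against 25.9% of regions. At the other end, 16 elements were in 1 list only.

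**Figure D1:**
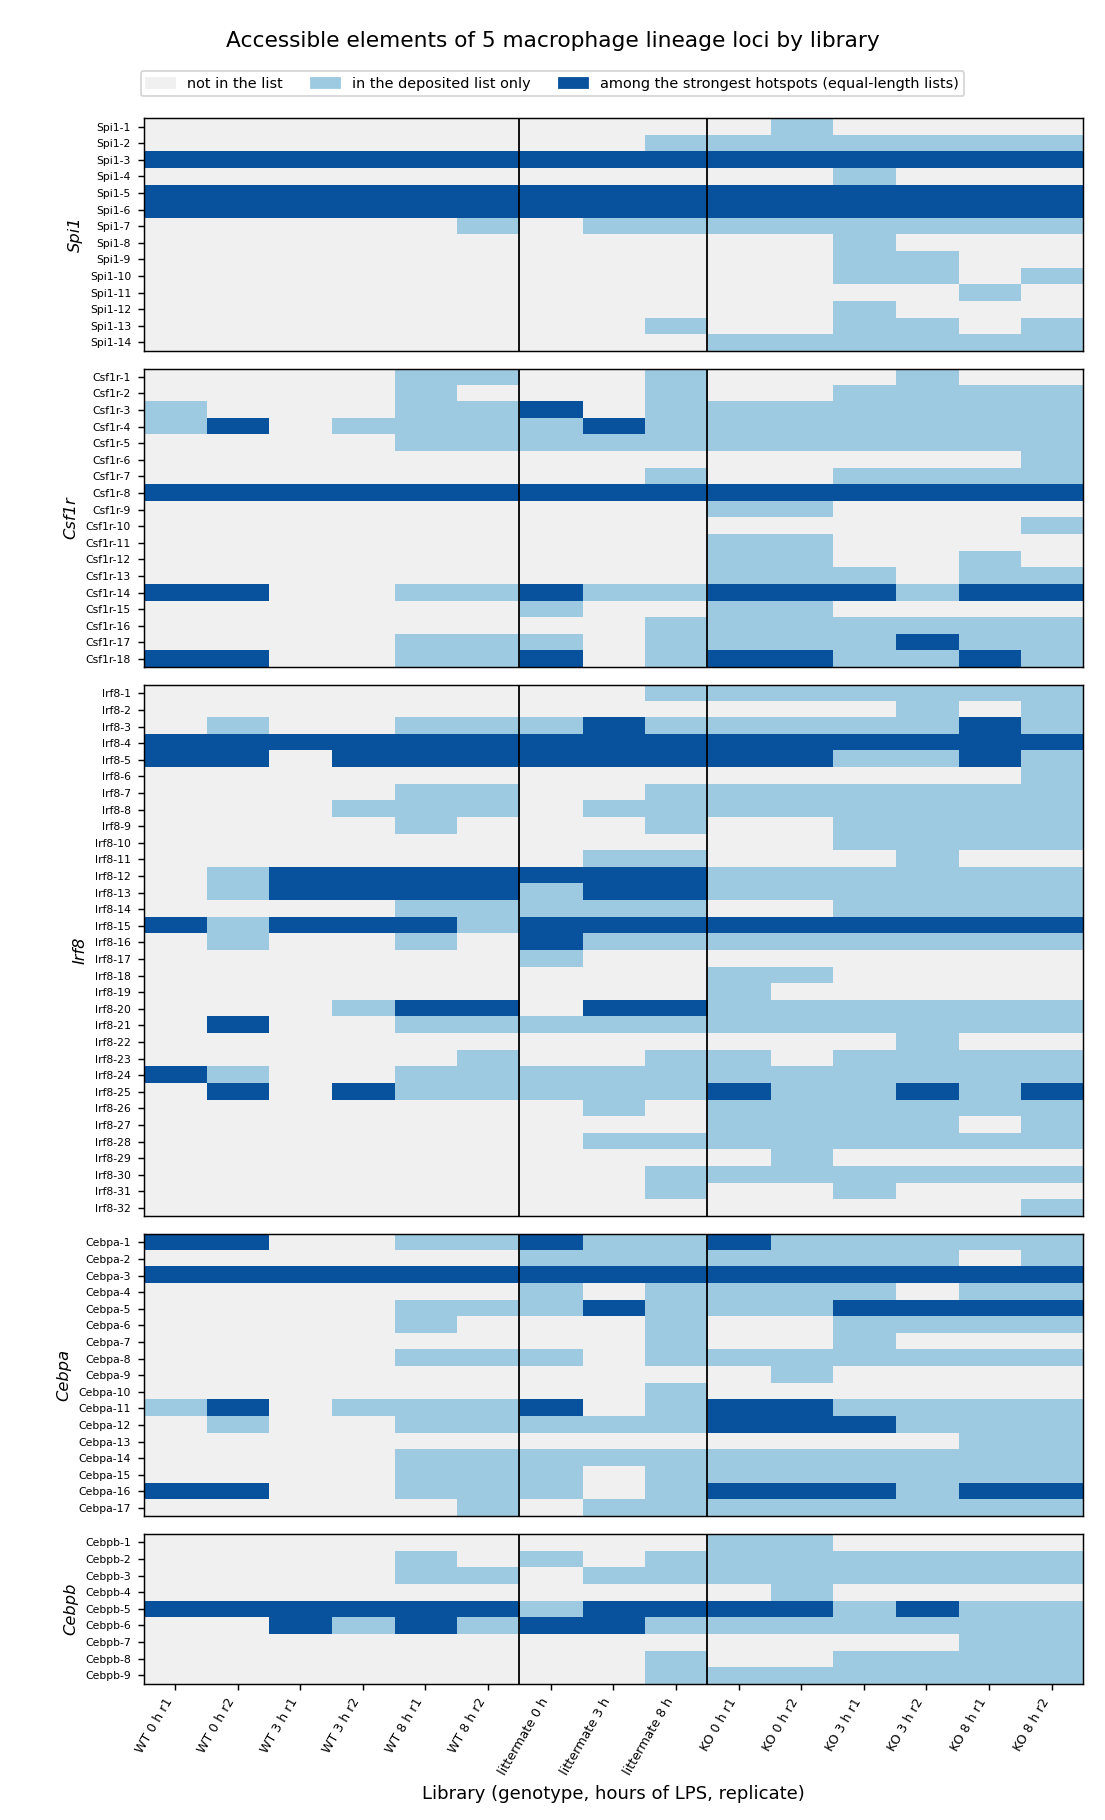
Presence of the 90 elements (rows, by locus and left to right along it) in the 15 libraries (columns); grey is absent, light blue in the deposited list only, dark blue also among the 15659 strongest hotspots of that library. The 3 leading Spi1 elements and 1 element each at Csf1r, Irf8 and Cebpa are dark in all columns, and light blue fills the 6 KO columns more than the 6 WT columns.

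Spi1-3 (chr2:90909474-90913277) had the best rank of the 90 elements in 12 of the 15 lists. Spi1-5 was ahead of it in WT replicate 2 at 0 h, and Csf1r-8 in WT replicate 2 at 8 h and KO replicate 1 at 3 h. Spi1-3 ranked 189 in its list in WT replicate 1 and 1574 in WT replicate 2 at 0 h, and 682 in the littermate. After 3 h of LPS these ranks were 150, 876 and 454, and after 8 h they were 341, 1576 and 775. The KO ranks were 1894 and 2102 before LPS, 3485 and 1571 after 3 h, and 2174 and 1900 after 8 h. WT replicate 1 thus had the best rank at every time, and the 2 WT replicates lay further apart in rank than WT replicate 2 and KO at 0 and 8 h.
Its highest tag density (MaxD, the authors' peak height) ran from 18.8 in the littermate at 0 h to 123 in WT replicate 1 at 8 h. By MaxD WT replicate 1 was below KO at 0 h (29.85 against 60.15 and 53.78) and at 3 h (32.57 against 50.37 and 64.61). At 8 h it was above KO (71.44 and 72.59). Spi1-5 (chr2:90920199-90931252), at 11053 bp the longest of the 90 elements, ranked 1391 to 4087 over the 15 lists, and Spi1-6 (chr2:90935819-90940246) 7152 to 15331. The centres of Spi1-5 and Spi1-6 lay 14.4 and 26.7 kb to the right of Spi1-3.

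Csf1r-8 (chr18:61264127-61270238), the leading element at the growth factor receptor, ranked 792 and 1607 in WT and 926 in the littermate at 0 h. After 3 h its ranks were 1789, 928 and 1024, and after 8 h they were 1851, 1361 and 2281. The KO ranks were 3422 and 2879 before LPS, 1880 and 1690 after 3 h, and 3193 and 3317 after 8 h. Controls and KO did not overlap in rank at 0 h or 8 h, with controls ahead, and they did at 3 h. By MaxD, which also carries each library's own strength, KO was higher at 0 h and 3 h. Csf1r-8 had 22.3, 21.0 and 18.1 in controls against 52.2 and 50.9 in KO at 0 h. At 3 h it had 20.3, 31.8 and 23.0 against 59.3 and 65.8. At 8 h the values overlapped, with 75.9, 69.1 and 55.3 against 68.1 and 70.0.

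Cebpa-3 (chr7:35902680-35906726) ranked 1746 to 6654 over the 15 lists and Irf8-4 (chr8:123208918-123211093) 1686 to 5687. In these ranks within whole lists, controls and KO overlapped at every time for both. Among the regions in all 15 lists, Irf8-4 at 8 h ranked 3396 to 5412 in controls and 2344 to 3297 in KO, without overlap. Among the regions in all 5 lists at 8 h its ranks overlapped, with 3498 to 5628 in controls and 2463 to 3553 in KO. Irf8-15 (chr8:123259497-123268430) spread further. It ranked 5871, 19507 and 14033 in controls at 0 h and 10520, 18681 and 15337 at 8 h, against 9264 and 9368 in KO at 0 h and 6155 and 6720 at 8 h. Between these times, after 3 h, it ranked 4910, 8010 and 13883 in controls and 13119 and 11184 in KO. KO thus ranked ahead of every control at 8 h, whereas at 3 h both WT libraries ranked ahead of KO.
Cebpb-5 (chr2:167513433-167521418) was the least even of the 8. It ranked 6831, 8004 and 39092 in controls before LPS, 3836, 7680 and 15610 after 3 h, and 4739, 9731 and 15369 after 8 h. In KO it ranked 14090 and 13889, 15905 and 10898, and 18426 and 16079 at the same times. At each time both WT libraries ranked ahead of KO, and the rank in the littermate stood nearer to KO than to WT. By MaxD, which also carries each library's own strength, the order differed. Cebpb-5 had 11.54 and 13.25 in WT against 25.14 and 28.81 in KO at 0 h. After 3 h it had 17.29 and 11.52 against 27.7 and 36.18, and after 8 h 65.22 and 34.02 against 38.79 and 36.77.

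Among the 10426 regions held by all 15 lists, 1 call was made for the 8 elements in 8 contrasts. Csf1r-8 was lower in KO than in controls at 0 h, by 0.73 normal-score units (SE 0.21, limma adjusted p = 0.0197), with ranks within the set of 783, 1587 and 910 in controls against 3306 and 2817 in KO. In that contrast 32.1% of all regions were called, 15.3% as lower. Ranked by MaxD the difference was -0.28 (adjusted p = 0.358). Without KO replicate 1 the adjusted p was 0.324 and without KO replicate 2 it was 0.26.
No element of the 8 was called for LPS in controls (20.0% of regions called at 8 h and 15.5% at 3 h), for LPS in KO (2.10% and 1.55%), for KO against controls at 3 h (22.1%) or 8 h (9.46%), or for the difference of the 8 h LPS change between genotypes (5.20%). At an unadjusted p under 0.05 limma had 1 element for LPS in controls at each time, 0 for LPS in KO at each time, 2 and 3 for genotype at 3 and 8 h, and 1 for the difference.

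These counts changed when either WT replicate was left out, which changes both the regions compared and the spread. The spread then came from KO alone, the lone WT and the littermate being assumed to vary like it, and the regions in every list went from 10426 to 13404 without WT replicate 1 and 11175 without WT replicate 2.
Without WT replicate 1, 13 elements were in every list, against 8 before. For KO against controls, 4 were called at 0 h (Csf1r-8, Csf1r-4 and Irf8-12 lower, Irf8-15 higher, with 52.5% of all regions called). At 3 h 5 were called (Spi1-3, Spi1-5, Irf8-5, Irf8-12 and Irf8-13, all lower, 43.3%) and at 8 h 4 (Irf8-12 and Irf8-13 lower, Irf8-15 and Irf8-25 higher, 29.7%). For LPS in controls, 4 were called at 8 h (39.9%) and 5 at 3 h (39.3%), with Irf8-12 and Irf8-13 higher at both times. For LPS in KO, 3 were called at 8 h (25.7%) and 2 at 3 h (18.3%).
Without WT replicate 2, Spi1-3, Cebpa-3 and Csf1r-8 were called lower in KO at 0 h (59.0% of regions), 4 elements at 3 h (Spi1-3, Spi1-5, Cebpb-5 and Irf8-15, all lower, 55.6%) and 3 at 8 h (Spi1-3 and Cebpb-5 lower, Irf8-15 higher, 38.7%). Spi1-3 was lower in KO at all 3 times there. For LPS in controls 4 were called at 8 h (39.8%) and 2 at 3 h (33.9%), and for LPS in KO 1 at 8 h (23.6%). The difference of the 8 h LPS change had 1 call without WT replicate 1 (Csf1r-4, 25.4%) and 2 without WT replicate 2 (Irf8-15 higher and Cebpb-5 lower, 26.6%).

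**Figure D2:**
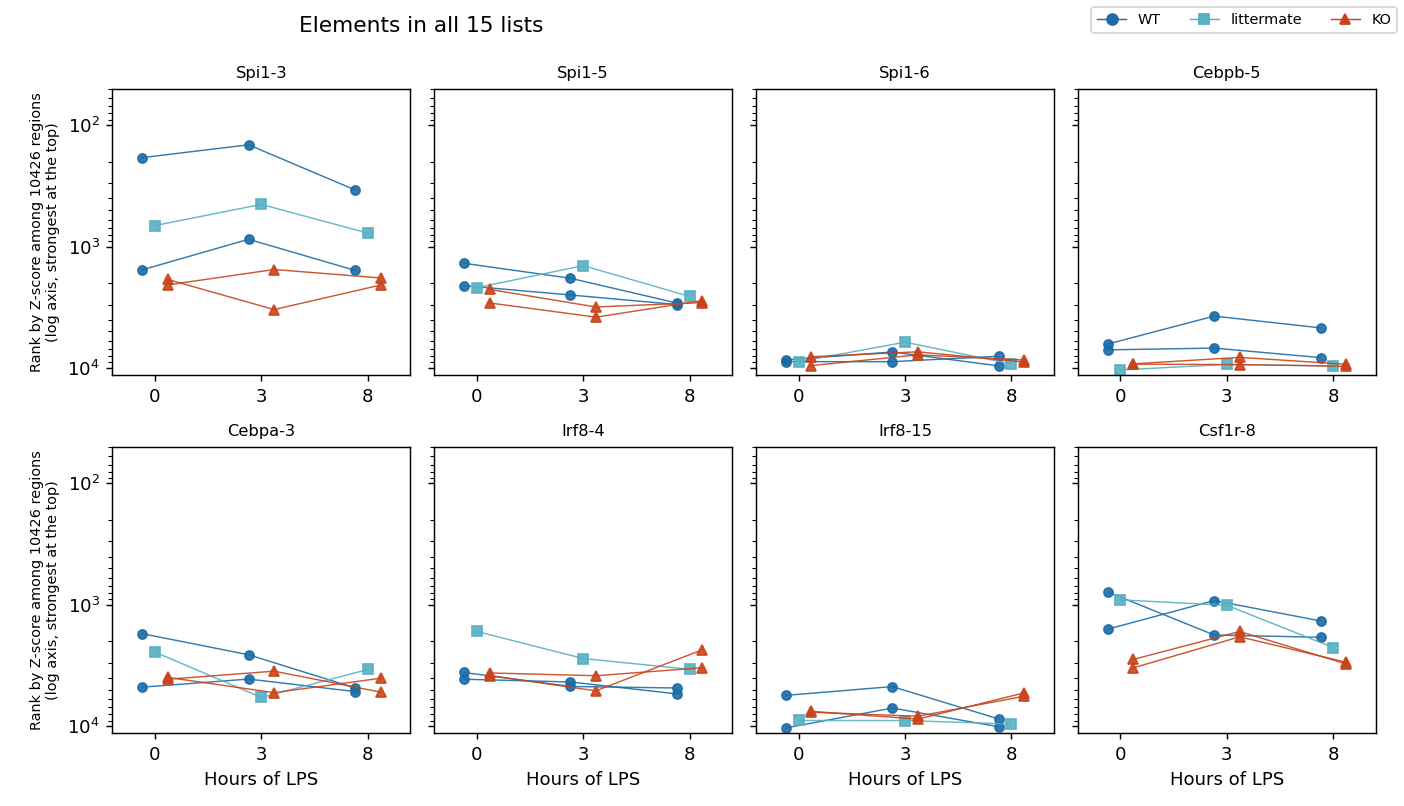
Rank by Z-score (log axis, strongest at the top) of the 8 elements that are in all 15 lists, among the 10426 regions all lists hold, against hours of LPS; each line is 1 replicate series of WT, littermate or KO. Csf1r-8 shows KO (2817 and 3306) under the controls (783 to 1587) at 0 h, and Spi1-3 shows the gap between the 2 WT series (185 and 1555 at 0 h).

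Fuller sets of regions, chosen after seeing the data, let more elements be compared. Where such a set held controls, WT and littermate libraries were pooled in limma as the control group of each time. At 0 h and 8 h, 10 lists shared 13430 regions, 16 of them lineage elements. The clearest change with LPS was a loss of rank in controls at elements to the right of Csf1r-8 and at the left end of the Cebpa window. The 3 elements Csf1r-14, Csf1r-18 and Cebpa-1 fell in rank in controls between 0 h and 8 h, against 9.33% of all regions called lower and 16.5% called in either direction. No element was called higher. The median difference over the 16 elements was -0.30, against 0.04 over all regions.

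Csf1r-14 (chr18:61275719-61281624, 11.5 kb to the right of Csf1r-8) ranked 7487 and 9982 in WT and 6971 in the littermate at 0 h. At 8 h it ranked 13374, 13217 and 13153, near the end of the 13430. In KO it ranked 7992 and 7599 at 0 h and 9360 and 10417 at 8 h. Controls at 8 h were below every other library, and controls and KO overlapped at 0 h. This element spans 5905 bp and takes the value of its strongest hotspot in each list. At 8 h hotspots covered 430 and 684 bp of it in WT, 2093 bp in the littermate, and 4860 and 4344 bp in KO. Whether the strongest hotspot lay at the same site in controls and KO was not checked.
The fall in controls was 1.99 units (SE 0.22, limma adjusted p = 0.000138). At 8 h KO was higher by 1.64 (SE 0.25, adjusted p = 0.00392, with 6.96% of all regions called). The difference of the LPS change between genotypes was 1.56 (SE 0.35, adjusted p = 0.0445), where 2.20% of regions were called, and its adjusted p went to 0.0514 without the littermate, 0.0668 and 0.0532 without WT replicate 1 or 2, and 0.653 and 0.595 without KO replicate 1 or 2. The 8 h difference had adjusted p of 0.201 and 0.135 without KO replicate 1 or 2.
Its MaxD was 8.36, 10.7 and 9.79 in controls and 35.0 and 35.2 in KO at 0 h. Neither WT list held it at 3 h, where the littermate had 5.87 and KO 23.5 and 21.8. At 8 h it was 7.02, 8.68 and 10.3 in controls and 37.7 and 29.2 in KO. KO was thus above all controls at each time on this scale, which also carries each library's own strength.

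Csf1r-18 (chr18:61290425-61294756) ranked 8544, 7287 and 9829 in controls at 0 h and 12648, 12942 and 13152 at 8 h. The KO ranks were 10572 and 9766 before LPS, then 10371 and 10939 after 8 h. Its MaxD went the other way, from 7.16, 9.57 and 6.78 in controls at 0 h to 13.04, 11.8 and 8.99 at 8 h, higher in all 3, so that its fall is one relative to the other regions. It fell by 1.44 in rank score in controls (SE 0.20, limma adjusted p = 0.000596), and KO was higher at 8 h by 0.98 (SE 0.22, adjusted p = 0.0258). Without WT replicate 2 the latter had adjusted p = 0.0567, and without KO replicate 1 or 2 it had 0.468 and 0.331. The difference of the LPS change was 1.32 and not called (adjusted p = 0.0561). A fit with each replicate series of WT, littermate and KO as its own block pairs the libraries of a series over time. There the difference was called (limma adjusted p = 0.0406), as was that of Csf1r-14 (0.0474). At 8 h hotspots covered 823 and 721 bp of Csf1r-18 in WT, 1839 bp in the littermate, and 2702 and 3270 bp in KO. Whether its strongest hotspot lay at the same site in controls and KO was not checked.
Cebpa-1 (chr7:35882944-35884903, 20.8 kb to the left of Cebpa-3) ranked 9847, 5183 and 5908 in controls at 0 h and 13190, 13240 and 13031 at 8 h, and fell by 2.00 (SE 0.26, adjusted p = 0.000364). Its MaxD in controls was 7.96, 12.5 and 8.66 before LPS, then 9.36, 8.33 and 9.99 by 8 h, higher in 2 of the 3 series. In KO it ranked 9949 and 11766 at 0 h and 13152 and 12851 at 8 h, a difference of -0.98 that was not called in this set (adjusted p = 0.166), and the change did not differ between genotypes at the threshold (1.02, adjusted p = 0.234).
These 3 calls in controls were kept in each of 8 alternatives, leaving out any replicate series included. At 3 h neither WT list held any of the 3 elements. Among equal-length lists these 3 elements were the ones that all 3 controls held before LPS and none held after 8 h, where 2.89% of regions showed this pattern. Over the same step, list length in controls went from 17237 to 64262 hotspots up to 48084 to 114427, and its part in the fall was not tested.

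No element of the 16 was called for LPS in KO in this set (1.38% of regions called, and 2 elements, Cebpa-1 and Irf8-5, at an unadjusted p under 0.05 by limma). Ranking by MaxD or fitting log2 MaxD gave 1 call each. At 0 h Csf1r-8 was the only element called between genotypes (-0.68, adjusted p = 0.0308, with 24.1% of regions called). The 0 h libraries are the same as in the set of 10426 regions. Ranked by MaxD or fitted on log2 MaxD, Csf1r-8 was not called. Its call was kept in 2 of 7 alternatives, with a difference of -0.11 at the smallest. Without WT replicate 1 it had adjusted p = 0.064, and without KO replicate 1 or 2 it had 0.313 and 0.238. The number of elements called at 0 h was 5 without WT replicate 1, 2 without WT replicate 2 and 2 without the littermate.

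**Figure D3:**
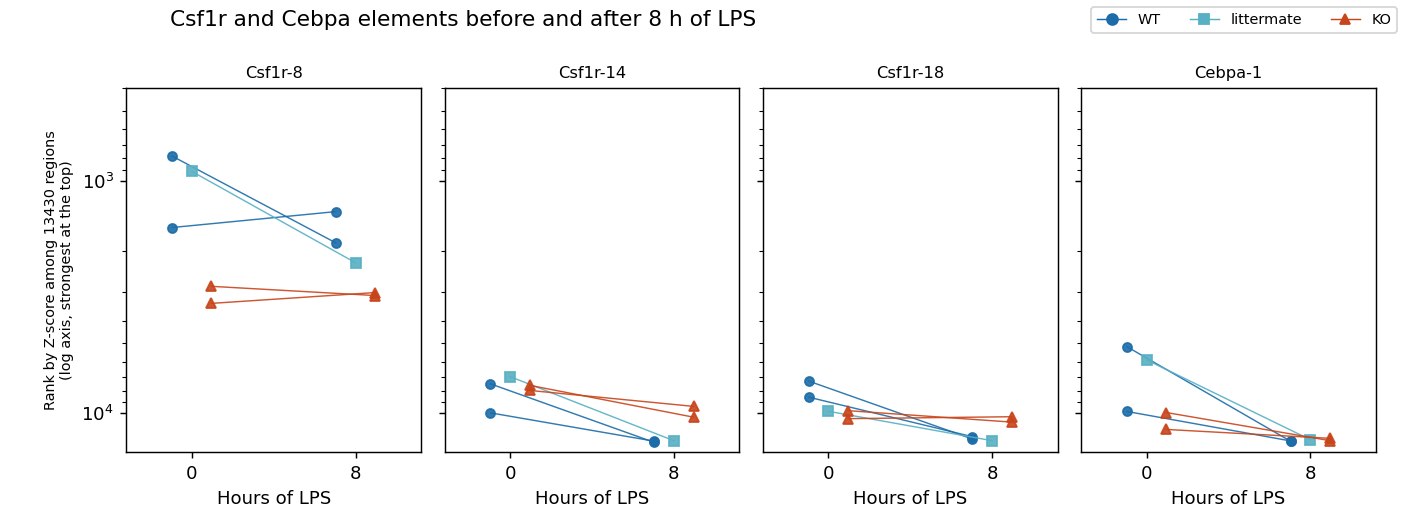
Rank by Z-score (log axis, strongest at the top) of Csf1r-8, Csf1r-14, Csf1r-18 and Cebpa-1 at 0 and 8 h of LPS, among 13430 regions in all 10 lists of these times; lines join the libraries of 1 replicate series. The control lines of Csf1r-14, Csf1r-18 and Cebpa-1 end at ranks 12648 to 13374 at 8 h, and the KO lines of Csf1r-14 and Csf1r-18 at ranks 9360 to 10939.

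At 8 h the 5 lists shared 37702 regions, 35 of them lineage elements, and KO differed from controls at 9 of the 35. In this contrast 20.0% of all regions were called, 8.93% higher and 11.0% lower in KO. The Irf8 window, which also had the most elements among the 35, held most of the lower calls (Irf8-12, Irf8-13, Irf8-14 and Irf8-20). The Csf1r window held 2 of the 4 higher ones (Csf1r-14 and Csf1r-17). The median difference over the 35 elements was 0.05, against 0.00 over all regions.

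Irf8-12 (chr8:123238795-123240632, 29.7 kb to the right of Irf8-4) ranked 7715 and 9648 in WT, 6841 in the littermate, and 30812 and 29903 in KO. It was lower in KO by 1.66 (SE 0.15, limma adjusted p = 0.00354). Irf8-14 (chr8:123248892-123249862) ranked 21350, 21568 and 24812 in controls against 37554 and 37025 in KO, at the very end of the 37702 regions. It was lower by 2.13 (SE 0.20, adjusted p = 0.0039).
Irf8-20 (chr8:123283464-123284731, 74.1 kb from Irf8-4) ranked 14013, 9798 and 10301 in controls against 30854 and 28159 in KO. It was lower by 1.31 (SE 0.17, adjusted p = 0.00662). All 3 elements showed controls and KO far apart, with every control ahead of both KO libraries.
Csf1r-14 ranked 34416, 30965 and 31090 in controls against 12075 and 14604 in KO, higher in KO by 1.45 (SE 0.19, adjusted p = 0.00687). Csf1r-17 (chr18:61284763-61288041), between Csf1r-14 and Csf1r-18, ranked 32942, 35812 and 36028 in controls against 16495 and 19662 in KO, higher by 1.55 (SE 0.21, limma adjusted p = 0.00755). Hotspots covered 340 and 376 bp of Csf1r-17 in WT, 668 bp in the littermate, and 2713 and 2219 bp in KO. The strongest hotspots compared at Csf1r-14 and Csf1r-17 may therefore not lie at the same site. The other calls, named here after their values were seen, were Irf8-7 and Cebpa-5 (higher in KO by 1.16 and 0.60) and Csf1r-3 and Irf8-13 (lower by 1.16 and 0.59). Irf8-13 kept its call in 0 of 7 alternatives, with adjusted p up to 0.277. Irf8-7 was 0.51 by MaxD (adjusted p = 0.137) and 0.35 by log2 MaxD (0.24). Csf1r-3 had adjusted p = 0.0511 without the littermate, and Cebpa-5 had 0.0562 and 0.0589 without WT replicate 1 or 2. Csf1r-18 ranked 21901, 26369 and 31088 in controls and 14394 and 16155 in KO, and was not called in this set (adjusted p = 0.0575).

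These genotype calls need both KO libraries. Without KO replicate 1, 0 of the 35 were called, and without KO replicate 2, only Irf8-14, with 1 KO library assumed to vary like the controls. The adjusted p of Irf8-12 was then 0.0549 and 0.0501, of Irf8-20 0.0874 and 0.064, of Csf1r-14 0.0865 and 0.0697, of Csf1r-17 0.0904 and 0.0718, and of Irf8-14 0.0549 without KO replicate 1. Their differences kept their sign throughout. Beside these calls, the lists at 8 h held 48084 to 114427 hotspots in controls and 125251 to 132279 in KO, and the Z-score of hotspot 15659 was 25.8 to 27.3 against 35.6 to 40.0. The part of list strength in the calls was not tested.

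**Figure D4:**
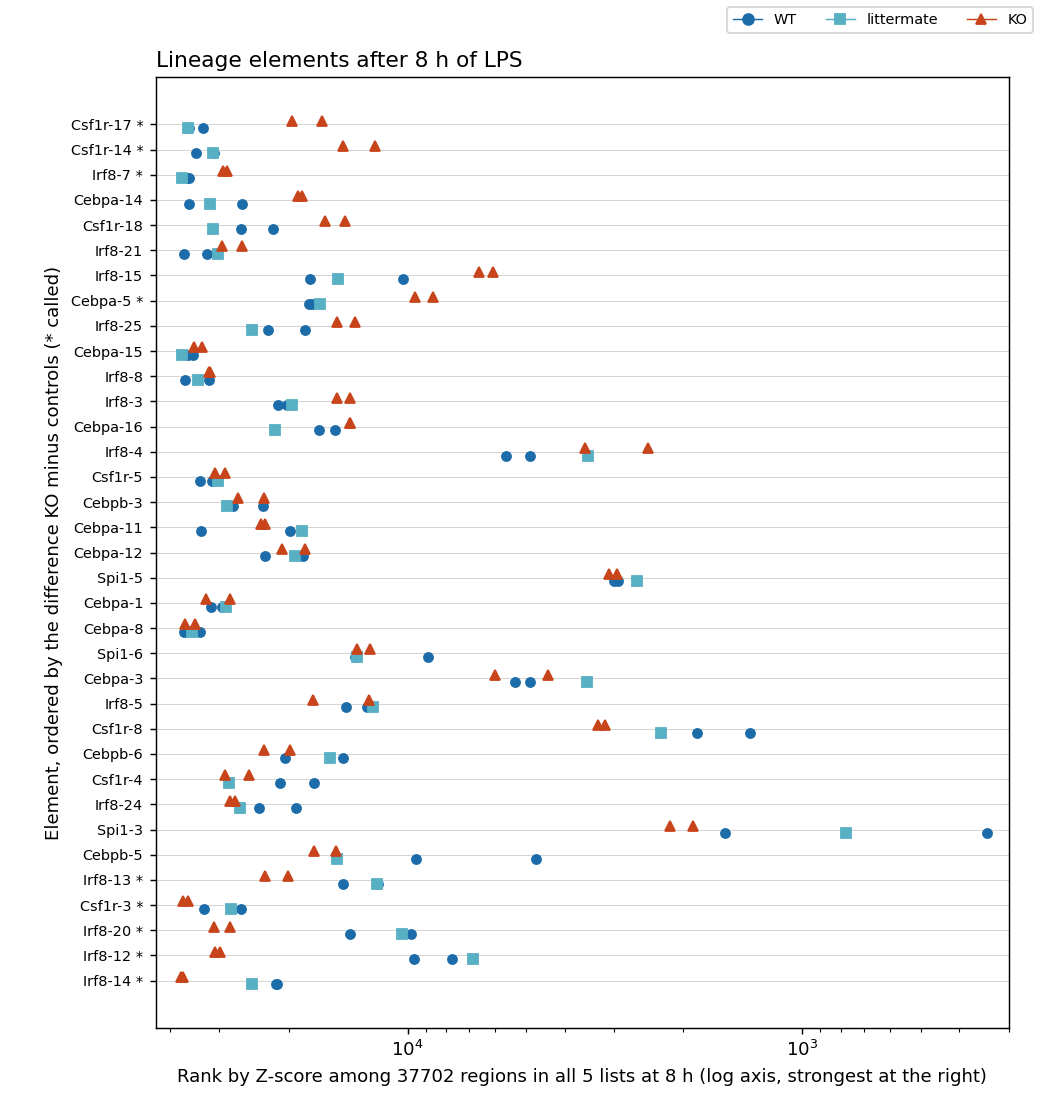
Rank by Z-score (log axis, strongest at the right) at 8 h of LPS of the 35 lineage elements held by all 5 lists of that time, among 37702 regions; blue symbols are the 3 controls, red triangles the 2 KO libraries, and rows are ordered by the difference, with called elements starred. The 4 Irf8 elements at the bottom of the order with stars (Irf8-12, Irf8-13, Irf8-14, Irf8-20) have both KO libraries to the left of all controls, and Csf1r-14 and Csf1r-17 at the top the reverse.

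Over time, the same Irf8 elements gained presence in controls, but not they alone. Irf8-7 and Irf8-8, not called lower in KO, were in no control list at 0 h and in all 3 at 8 h. This pattern was shown by 2.99% of all regions. Control lists held 17237 to 64262 hotspots at 0 h and 48084 to 114427 at 8 h, and the part of list length in the gain was not tested. Irf8-12 was in 2 of 3 control lists at 0 h, with Z-scores of 9.42 in WT replicate 2 and 9.97 in the littermate, and in all 3 at 3 h, with 17.4, 20.0 and 15.5. Irf8-20 was in no control list at 0 h, in 2 at 3 h and in 3 at 8 h, with Z-scores of 28.3, 35.6 and 36.7 at 8 h. Irf8-14 was, among controls, in the littermate list alone at 0 h and 3 h and in all 3 lists at 8 h, whereas in KO it was in neither list before LPS, ranked 53149 and 36482 after 3 h, and stood at 101152 and 77461 by 8 h. At 3 h it was thus in both KO lists and in neither WT list. The WT lists at 3 h held 15659 and 20077 hotspots, too few to hold the KO ranks. Its absence there cannot be told apart from list length. At 8 h its ranks in KO were behind those in all controls. Against WT, list length fixes this order, since the WT lists held 48084 and 51834 hotspots. Among the regions in all 5 lists at 8 h, Irf8-14 ranked 21350, 21568 and 24812 in controls against 37554 and 37025 in KO.
In equal-length lists, Irf8-13 and Irf8-20 were in all 3 controls at 8 h but in none before LPS (4.92% of regions). Irf8-12, Irf8-13, Irf8-20 and Cebpb-5 were in all 3 controls and no KO library at 8 h (4.76% of regions), and 3 elements (Csf1r-14, Cebpa-5 and Cebpa-16) in both KO and no control (7.14%).

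Within KO, the 6 lists shared 59583 regions, 46 of them lineage elements. At 3 h 9 elements differed from 0 h, 4 higher and 5 lower, with 11.5% of all regions called (6.32% higher, 5.13% lower). At 8 h 6 differed, 2 higher and 4 lower, with 13.2% called (7.45% and 5.74%). The median difference over the 46 was -0.03 at 3 h and -0.04 at 8 h, against -0.01 and -0.03 over all regions.

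The largest rise at both times among the elements called was at Cebpb-9 (chr2:167538648-167539831), 21.8 kb to the right of Cebpb-5. It ranked 56981 and 53424 in KO at 0 h, 33646 and 27335 after 3 h, and 25420 and 26490 after 8 h. Both later times were ahead of both libraries at 0 h. The rise was 1.46 at 3 h (SE 0.19, limma adjusted p = 0.0164) and 1.65 at 8 h (adjusted p = 0.0117). Of the 9 control lists only the littermate at 8 h held this element, at a Z-score of 3.69 and near that list's end. It is the last element inside the Cebpb window, and the next region, at chr2:167540192-167543833, was in 13 lists.

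Irf8-16 (chr8:123268844-123269911, beside Irf8-15) ranked 24539 and 25415 in KO at 0 h, 55950 and 52781 after 3 h, and 49876 and 46698 after 8 h. It fell by 1.58 at 3 h (SE 0.16, adjusted p = 0.0122), and at 8 h it fell by 1.09 (adjusted p = 0.0175). Irf8-12 went the other way within the same locus, from 54307 and 52711 at 0 h to 23976 and 34763 at 3 h and 38149 and 36199 at 8 h, a rise of 1.29 (SE 0.18, adjusted p = 0.0188) and 0.96 (adjusted p = 0.0307). By MaxD its 8 h change was 0.27 (adjusted p = 0.294).
Irf8-20 ranked 50151 and 45846 at 0 h, 31128 and 30341 after 3 h, and 38249 and 32842 after 8 h. It rose by 0.83 at 3 h (SE 0.15, adjusted p = 0.0302), and by MaxD this was 0.68 (adjusted p = 0.053). Irf8-12 and Irf8-20, 2 of the 5 elements lower in KO than in controls at 8 h, thus rose with LPS in KO at 3 h. Of the other 3, Irf8-13 and Csf1r-3 were not called at 3 h (0.40 and 0.24, adjusted p = 0.201 and 0.52), and Irf8-14 was not in every KO list. The 8 h change of Irf8-20 in KO was not called. Whether the 8 h change of Irf8-12 or Irf8-20 differed between genotypes could not be tested with all libraries, since they were not in every list at 0 h. Without WT replicate 1, Irf8-12 was in every list, and its difference of the 8 h LPS change was not called.

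At Csf1r, Csf1r-18 ranked 13168 and 11522 in KO at 0 h, 28794 and 33483 after 3 h, and 14904 and 16823 after 8 h. It fell by 0.87 at 3 h (SE 0.13, adjusted p = 0.0207), and its 8 h value lay between the other times. At Cebpa, Cebpa-1 ranked 11849 and 16864 at 0 h, 44770 and 36453 after 3 h, and 42235 and 32920 after 8 h. It fell by 1.19 at 3 h (adjusted p = 0.0305), and at 8 h it fell by 1.05 (adjusted p = 0.0377), which in this larger set passed the threshold. Cebpa-11 (chr7:35934944-35937321) ranked 13629 and 15044 at 0 h and 25743 and 24926 at 8 h, and fell by 0.52 (adjusted p = 0.0441).
The remaining calls, named after their values were seen, were Cebpb-2 lower at 8 h (-0.54, adjusted p = 0.0499, kept in 0 of 9 alternatives and -0.17 at the smallest), Cebpa-14 higher at 3 h (0.53), and Irf8-24 and Csf1r-16 lower at 3 h (-0.62 and -0.58). No Spi1 element was called in KO at either time. With the replicate number as a block, 5 elements were called at 3 h and 2 at 8 h, the KO replicates not being paired by their values. Each KO library was also left out alone, the lone library of that time being assumed to vary like the others. At 3 h Cebpb-9 and Irf8-16 kept their calls without either 0 h library (4.72% and 4.43% of regions called) or either 8 h library (3.03% and 3.09%), and 0 elements were called without either 3 h library (0% of regions). At 8 h Cebpb-9 alone was called without either 0 h library (6.29% and 5.66%), Cebpb-9, Irf8-12 and Irf8-16 without either 3 h library (8.77% and 8.37%), and 0 without either 8 h library (0%). The other calls at 3 h and 8 h were lost whenever any KO library was left out.

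**Figure D5:**
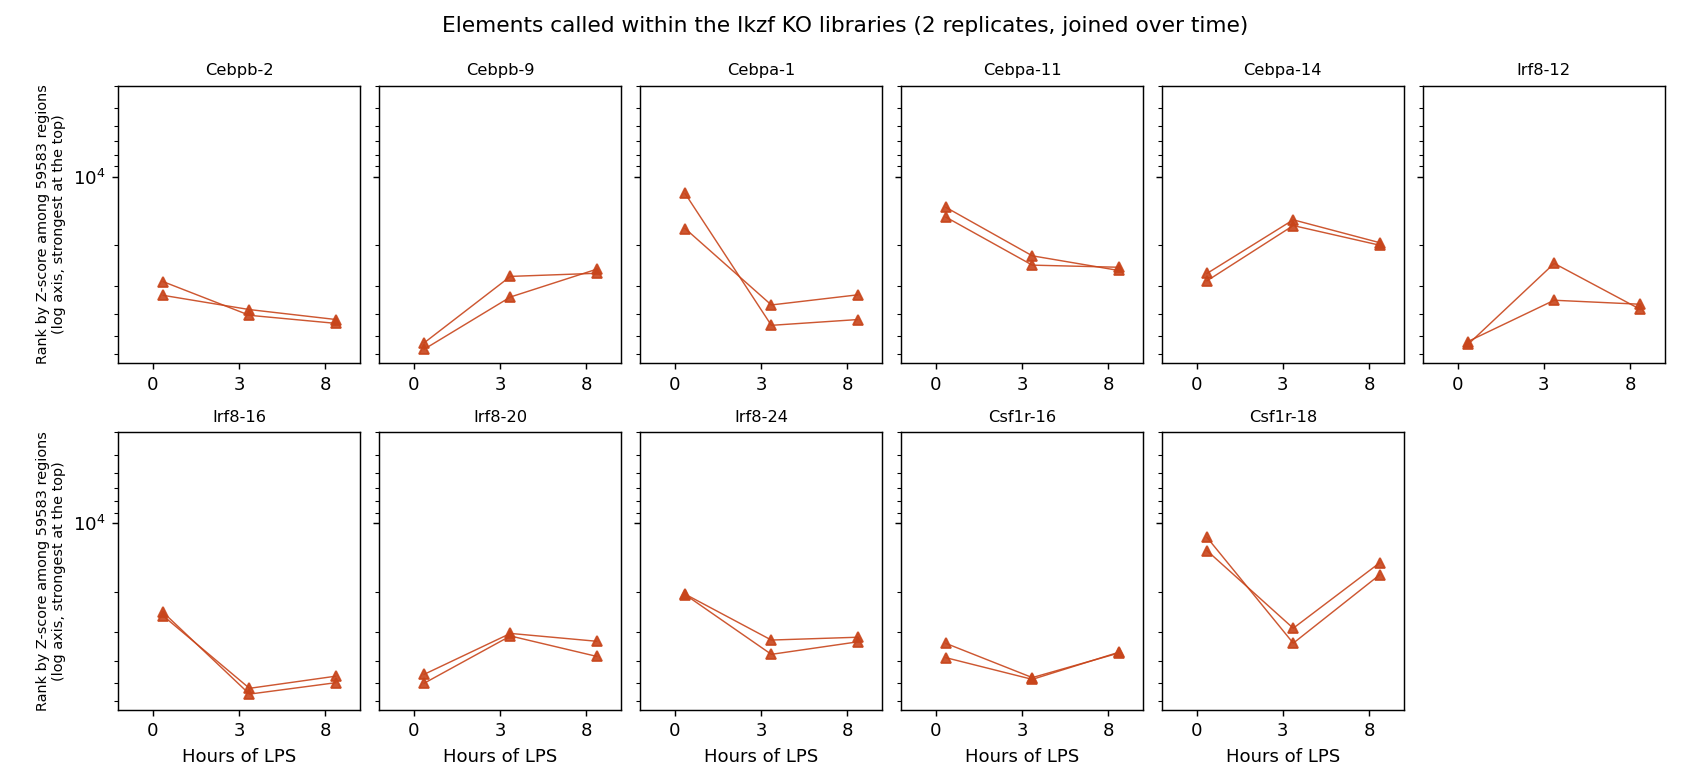
Rank by Z-score (log axis, strongest at the top) against hours of LPS of the 11 elements called at 3 or 8 h within KO, among 59583 regions in all 6 KO lists; each line is 1 KO replicate. Cebpb-9, Irf8-12, Irf8-20 and Cebpa-14 move up from 0 h to 3 h, and Cebpa-1, Irf8-16, Irf8-24, Csf1r-16 and Csf1r-18 move down.

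Presence alone separated few elements by genotype over all times, or by time over all genotypes. More were separated by genotype at 0 h in the deposited lists, as given below. Spi1-14 (chr2:90972121-90972885), the last element of the Spi1 window, was the single element in all 6 KO lists and no control list, where 1.78% of all regions were. No element was in all 9 control lists and no KO list (0.00185% of regions), in all 5 lists at 8 h and none at 0 h (0.369%), or the reverse (0.000308%). In equal-length lists the last 2 patterns were also at 0 elements (1.63% and 0.626% of regions). No element left all 3 controls between 0 h and 8 h (0.00463%), and none was in all 3 controls but no KO list at 0 h (0.0136%, or 2.88% in equal-length lists). Without the littermate the count for KO alone went from 1 to 8, and in equal-length lists it was 0.
In the deposited lists, 21 elements were in both KO lists at 0 h and in no control at 0 h (10.5% of regions), 9 of them at Irf8, 5 at Csf1r, 3 each at Spi1 and Cebpb and 1 at Cebpa. In equal-length lists this was 1 element, Cebpa-12 (5.66%). At 8 h, 6 elements were in both KO lists and in no control (5.89%), and Csf1r-1 was the 1 element in all controls and no KO list (0.189%).
By 8 h of LPS 5 elements had entered all 3 control lists that no control held at 0 h (Cebpb-3, Irf8-7, Irf8-8, Irf8-20 and Csf1r-1, 2.99% of regions). In KO, 9 entered both lists by 8 h (3.95%) and 5 left both (0.990%), the latter being Cebpb-1, Irf8-18, Csf1r-9, Csf1r-11 and Csf1r-15. In equal-length lists 1 element, Cebpa-5, entered both KO libraries by 8 h (7.28%), and 3, Cebpb-5, Cebpa-11 and Cebpa-12, left both (6.16%). Irf8-20 was the 1 element among those entering in controls in the deposited lists that did so in equal-length lists too.

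The share of each window covered by hotspots depends on the window's width, which was 75 kb at Spi1, 70 kb at Csf1r, 80 kb at Cebpa, 180 kb at Irf8 and 50 kb at Cebpb. The ranges over libraries overlapped between loci. Over the 15 equal-length lists, hotspots covered 5.84% to 23.0% of the Spi1 window, 3.21% to 18.8% at Csf1r, 1.71% to 12.2% at Cebpa, 1.42% to 7.94% at Irf8 and 0% to 13.7% at Cebpb, against 0.393% to 1.23% of the genome. The Cebpb window had no hotspot among the 15659 strongest in 3 KO libraries, replicate 1 at 3 h and both at 8 h. The Spi1 window kept the same 3 elements in all 15 equal-length lists. Just inside the window edges, the outermost elements were in 1 to 13 lists and the nearest regions outside in 1 to 15 lists.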

How the data were processed

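DNase-seq hotspots were analysed in 15 libraries, grouped by genotype and hours of LPS from the sample labels. The authors deposited 1 hotspot list per library in mm9 coordinates, with CASAVA used per the submitters' processing notes; the caller, its threshold and the aligner were not given in the sources used here. Each deposited hotspot carries, per the file headers, the signal MaxD (highest tag density), the mean density, its Z-score and the p-value of that score. Of these the deposited signal MaxD and the deposited score Zscore were used, and the deposited p-value was not. Whether starts count from 0 or 1 is not stated, and positions are printed as deposited. The lists give no read totals, so depth is unknown; density steps of 0.237 to 0.451 per tag would put relative depth at 0.525 to 1 if all were scaled alike.

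The members and element sets were chosen with earlier results of these data known. Regions were merged with Python 3.11.15 and pandas 2.3.3 (overlap of at least 1 bp), and an element took its highest Z-score and MaxD in each list. In a long element these values can come from different sites in different lists. Ranks within regions held by all lists were turned into normal scores and fitted in limma 3.58.1 (R 4.3.3) with Benjamini-Hochberg adjustment, after a test on simulated data. The set of 10426 regions was fitted over 9 groups of genotype and hours. The sets of 13430, 37702 and 59583 regions were fitted over groups of class (control or KO) and hours. There WT and littermate libraries were pooled as the control group of each time. Controls weight each library equally. Elements named are the up to 3 strongest per locus in all lists, up to 5 called per contrast, and those present in 1 genotype or time alone. Same-numbered WT libraries deviated together (r = 0.289, 0.390 and 0.418 between times) and KO libraries did not (-0.048, -0.051 and 0.222); in WT the number also goes with the DNase amount in the titles. Alternatives were ranks by MaxD, log2 MaxD, equal-length lists, a common Z-score minimum of 10.6, 50% coverage of a region, littermate controls alone, the replicate block and leaving out each series or, within KO, each library.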

Additional observations from a re-analysis of the deposited data

Results flagged for a closer look

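With no replicate block, Csf1r-14 was the 1 of 16 elements whose 8 h LPS change differed between genotypes by a test of the difference itself. The change in KO minus that in controls was 1.559 normal-score units among the 13430 regions in all 10 lists at 0 h and 8 h (limma adjusted p = 0.0445). In 8 alternatives the adjusted p ran up to 0.653 and the call was kept in 2. With the replicate block Csf1r-18 was called too (1.32, adjusted p = 0.0406). Among regions in every list, Csf1r-4 was called without WT replicate 1, and Irf8-15 and Cebpb-5 without WT replicate 2.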

How the results depend on the processing

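Element by element, no call reversed: of 261 alternative values, 123 kept their call and 138 kept only their direction. A common Z-score minimum left 5 elements in all 15 lists, and 50% coverage left 0. Elements in all KO lists alone went to 0 in equal-length lists, 3 with the common minimum and 5 at 50% coverage; those at 8 h and not 0 h went to 2 with the common minimum. Leaving out 1 series gave 8 to 13 elements in all lists, 1 to 8 in KO alone and 0 to 3 at 8 h alone.

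In the set of 10426 regions, KO against controls at 0 h had 0 calls by MaxD, 0 by log2 MaxD and 2 with the littermate as the only control. Leaving out 1 series gave 0 to 4 calls for LPS in controls at 8 h, 0 to 5 at 3 h, 0 to 3 and 0 to 2 for LPS in KO at 8 h and 3 h, 0 to 4, 0 to 5 and 0 to 4 for KO against controls at 0, 3 and 8 h, and 0 to 2 for the difference of the LPS change. In the 6 KO lists, MaxD gave 3 calls at 8 h and 5 at 3 h, and the replicate block 2 and 5; leaving out 1 library gave 0 to 3 and 0 to 2. In the 5 lists at 8 h, leaving out 1 series gave 0 to 11 calls. In the 10 lists at 0 h and 8 h, log2 MaxD gave 6 calls for LPS in controls, 1 for LPS in KO, 0 for genotype at 0 h and 2 for the difference. There MaxD gave 1 call for LPS in KO and 0 for the difference, and the replicate block 2 for the difference; the block moved no other count by over 1.5 times. Leaving out 1 series gave 0 to 2 calls for LPS in KO, 0 to 5 and 0 to 2 for genotype at 0 h and 8 h, and 0 to 1 for the difference. The cause was not tested, beyond the sets and spreads that each choice changes. At 50% coverage no lineage element was in every list, so that choice gave no value in the fits.

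By log2 MaxD the share of calls that were higher went from 52.1% to 35.0% for LPS in controls (10426 regions), from 66.8% to 86.0% for the difference, from 44.7% to 32.1% at 8 h (37702 regions) and from 43.3% to 26.0% for LPS in controls (13430 regions). By MaxD it went from 66.8% to 79.0% for the difference (10426 regions). The median of all regions at 8 h shifted by -0.11 on that log2 scale, and by 0.13 in rank by MaxD at 0 h. List strength limits what can be seen: an element missing from a short WT list may be open below its threshold.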
